A study of Mus musculus with 63 samples.

Results

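RNA-Seq was carried out on mouse small intestinal organoids in which CDK8 was deleted while the organoids were kept in medium conditioned by Wnt3-producing cells (Wnt3-CM). These are 6 of the 63 samples of the series, chosen by their medium and time point: 3 libraries of vehicle-treated (EtOH) and 3 of 4-OHT-treated organoids, all collected at day 10. The organoids were of the C57BL/6 line VillinCreERT2; Cdk8 fl/fl; Cdk19 ko/ko, so every library, the EtOH controls included, came from cells that lack CDK19 from the germ line on. A Cre recombinase driven by the villin promoter, which is active in intestinal epithelial cells, was switched on by 100 nM 4-OHT over 24 h, whereas the controls received 0.001% EtOH, and Wnt3-CM was given from then on, on top of Noggin, R-spondin and EGF. Supplying Wnt3 from outside serves to see which effects of the deletion on secretory cells are still there when this ligand is not limiting. It rests on a single organoid line, and nothing says whether the 3 libraries of a group come from separate cultures, so that p-values measure only the spread between these samples. No library of a Cre line without floxed Cdk8 in this medium was used here, and therefore the deletion and the 4-OHT/Cre treatment cannot be told apart. The same line at day 10 without Wnt3-CM, called standard medium here, served for comparison with 3 libraries per treatment. Its response was taken from a fit over 24 libraries of that medium, from days 3, 5, 7 and 10, which share the filter, the scaling and the estimate of the spread.

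CDK8 and its paralog CDK19 are the kinases of the Mediator kinase module, which they form with cyclin C, MED12 and MED13, and which binds the Mediator complex and modulates transcription by RNA polymerase II. In the small intestine, Lgr5+ stem cells at the crypt base give rise to absorptive enterocytes and to secretory cells, namely Paneth, goblet, enteroendocrine and tuft cells. Notch signaling favors the absorptive fate through Hes1, whereas the transcription factor Atoh1 starts the secretory program. Wnt signals keep stem cells cycling and mature Paneth cells, and Paneth cells are themselves the epithelial source of Wnt3.

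The 6 libraries held between 19183905 and 20361097 counts, with a read on 19610 to 20881 genes. Within each group replicates 2 and 3 were closest, with a chi-square per gene of 2.93 in EtOH and 6.04 in 4-OHT, against 7.49 and 8.57 in EtOH and 11.5 and 12.6 in 4-OHT for the pairs with replicate 1, and replicates 2 and 3 were the closest pair in standard medium as well. Mitochondrial transcripts took 1.45% to 1.56% of the counts in EtOH and 1.61% to 2.43% in 4-OHT organoids, and were highest in 4-OHT replicate 3. Epithelial identity genes (Epcam and 7 others) summed to between 13470 and 14000 CPM (counts scaled to the library total after its adjustment by TMM factors) in EtOH and between 10350 and 11190 CPM in 4-OHT organoids. Of 12 immune cell markers 2 passed the filter on low counts, with a sum of 2.52 to 3.16 CPM in EtOH and 3.19 to 3.48 CPM in 4-OHT, and Cd3e, Adgre1 and Tyrobp had 0 counts in every library. Of 12 mesenchymal markers Pdgfrb and Postn passed the filter, and their sum was 7.68 to 8.97 CPM in EtOH and 4.36 to 5.02 CPM in 4-OHT. Col3a1, Lum and Thy1 were at 0 counts throughout, but 4-OHT replicate 3 held 70 counts of Vim and 18 of the glial gene Sox10, against 0 for both genes in all 3 EtOH libraries. Without this library 2298 genes were called by the criteria given next, against 2319 with it, and its part in single results was assessed by leaving it out.

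Cdk8 (chromosome 5, 146231230 to 146302874 on GRCm38) was read at 49.9, 46.8 and 45.9 CPM in the EtOH and at 46.7, 53.8 and 56.1 CPM in the 4-OHT libraries. The groups overlapped and did not differ by the test (log2 fold change 0.14 ± 0.08 (SE), adjusted p = 0.162). Cdk19 (chromosome 10, 40339564 to 40483818), constitutively disrupted in both groups, was read at 38.1 to 40.3 CPM in EtOH and 35.6 to 41.2 CPM in 4-OHT organoids (-0.03 ± 0.08, adjusted p = 0.76). Counts over a whole gene do not resolve the deleted exons, so neither value checks the genotype. Among the other subunits of the kinase module, Med12 was higher in 4-OHT organoids, from 26.0 to 31.0 CPM in EtOH to 44.4 to 48.0 CPM (0.74 ± 0.08, adjusted p = 1.88e-07). Med13l fell from 63.5 to 66.4 CPM to 34.0 to 46.7 CPM (-0.72 ± 0.09, adjusted p = 4.23e-06). Med13 (-0.49 ± 0.08) stayed under the fold criterion, and Ccnc, which encodes cyclin C, gave 0.07 ± 0.08 (adjusted p = 0.515).

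In Wnt3-CM 13745 genes were tested by the quasi-likelihood test of edgeR, and calling a gene required both a change of more than 1.5-fold and a p below 0.05 after Benjamini-Hochberg adjustment. By these criteria 2319 genes, or 16.9% of those tested, differed between 4-OHT and EtOH organoids. They comprised 1299 genes that were higher (9.45%) and 1020 that were lower (7.42%) in 4-OHT organoids. Of these, 594 rose and 446 fell by more than 2-fold, and 123 rose and 108 fell by more than 4-fold. The median log2 fold change over all genes tested was 0.0007. In 56.3% of all genes tested the 3 EtOH and the 3 4-OHT values did not overlap, so a lack of overlap is common here. In standard medium 2437 of 15447 genes were called (15.8%), 1368 higher (8.86%) and 1069 lower (6.92%). The difference between the responses in both media, tested as an interaction over the 12 day 10 libraries, was called in 1911 of 14337 genes (13.3%), and was positive in 1020 (7.11%) and negative in 891 (6.21%). All fold changes below are log2 fold changes of 4-OHT over EtOH with their standard error, and levels are CPM, which do not take gene length into account and are compared only within a gene. A gene with fewer than 10 counts in most libraries of 1 group entered the test through the other group, where it is high, and so had to differ, which limits what its call shows. Of the genes named below this holds for Adh4, Avil, C730002L08Rik, Chrna4, Col26a1, Ctrb1, Cxcl10, Cyp2c38, Dclk1, Defa3, Defa32, Fam129a, Gbp2, Gm11992, Gm13058, Gnat3, Insm1, Ly6c1, Ly6g, Maml2, Notum, Nt5e, Olr1, Pik3r5, Pimreg, Ppef1, Prox1, Rgs13, Sh2d7, Slc5a11, Spib and Spp2.

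**Figure D1:**
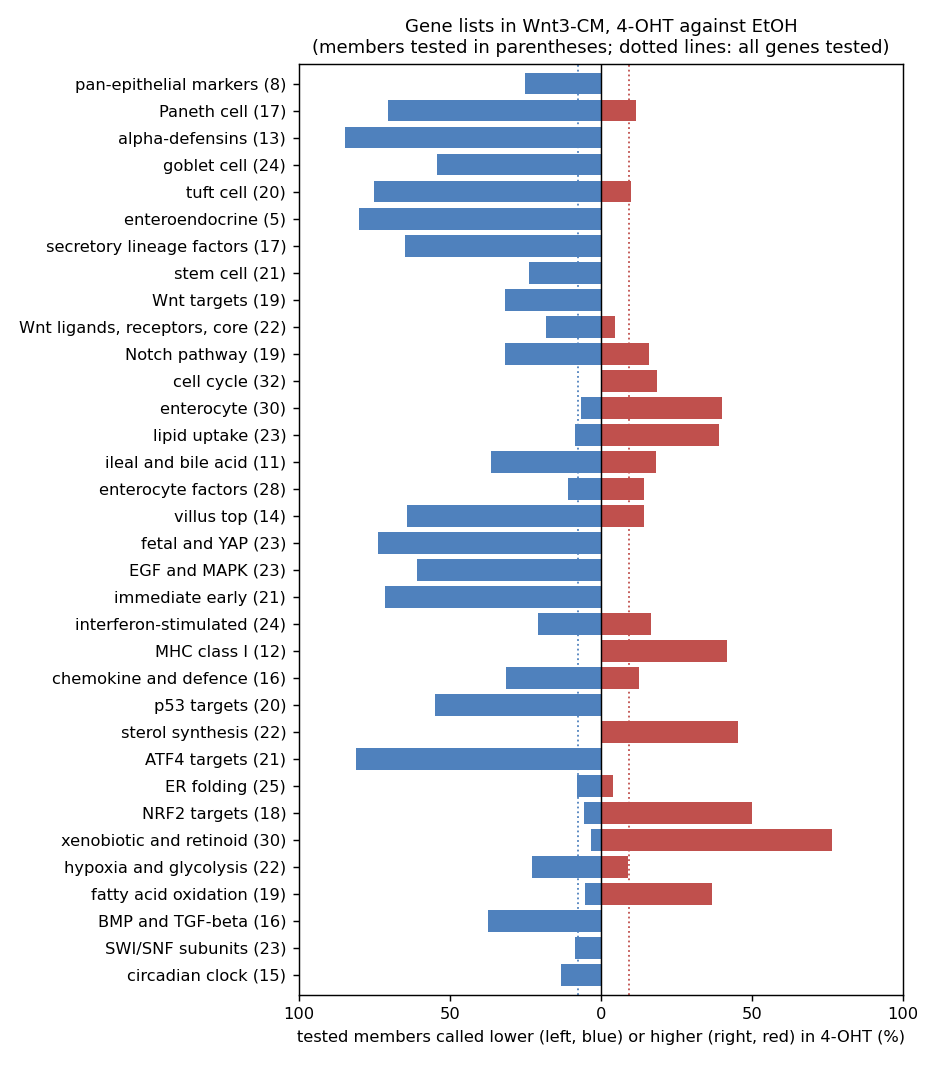
Share of tested members of each gene list (y axis, number tested in parentheses) that were called lower (blue, left) or higher (red, right) in 4-OHT than in EtOH organoids in Wnt3-CM (x axis, percent), with dotted lines for all genes tested. Secretory, immediate early, ATF4 target and fetal/YAP lists lie mostly to the left, whereas xenobiotic, NRF2 target and sterol synthesis lists lie mostly to the right.

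Lyz1 (lysozyme, chromosome 10, 117287797 to 117292868) was read at 3602, 3977 and 3720 CPM in the EtOH libraries and at 1243, 1102 and 1373 CPM in the 4-OHT libraries (-1.60 ± 0.08, adjusted p = 1.47e-12). Ang4, which encodes a bactericidal ribonuclease of Paneth cells, went from 1061, 1213 and 1225 CPM to 203, 179 and 211 CPM (-2.56 ± 0.08, adjusted p = 1.1e-15). The groups were far apart for both genes, and these were the largest losses of CPM among all called genes. Itln1, an intelectin of Paneth and goblet cells, fell from 1112 to 1190 CPM to 269 to 335 CPM (-1.91 ± 0.08, adjusted p = 8.51e-14). Mmp7, the protease that activates alpha-defensins, was read at 158, 186 and 170 CPM in EtOH and at 75.1, 72.9 and 84.2 CPM in 4-OHT organoids (-1.14 ± 0.07, adjusted p = 6.81e-11). The antimicrobial phospholipase gene Pla2g2a dropped from 11.5 to 17.3 CPM to 1.46 to 2.04 CPM (-3.03 ± 0.18).

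Of 22 Paneth cell genes other than defensins, 17 were tested, of which 12 fell and 2 rose, with a median of -0.91. The exceptions were Reg3a, a lectin of Paneth cells and enterocytes, and Guca2b, a peptide hormone made by enterocytes as well. Reg3a rose from 6.78, 6.93 and 9.90 CPM to 25.9, 22.1 and 28.1 CPM (1.69 ± 0.13, adjusted p = 1.17e-08). Its relative Reg3b went the other way (-1.62 ± 0.30, adjusted p = 0.00426), from 9.94 to 21.2 CPM to 4.33 to 5.32 CPM. In standard medium 11 Paneth cell genes fell and 2 rose, with a median of -0.86. The responses of Lyz1 (0.23 ± 0.11, adjusted p = 0.149) and Ang4 (-0.47 ± 0.12, adjusted p = 0.00546) did not reach the criteria for a difference between the media. For Lyz1 the standard medium gave -1.83 ± 0.11, and for Ang4 it gave -2.09 ± 0.12. In bulk RNA, fewer Paneth cells and less RNA per Paneth cell cannot be told apart, and the same holds for every cell type below.

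Alpha-defensins are the antimicrobial peptides that Paneth cells store in their granules, and their genes form a cluster of near-identical copies on chromosome 8. Of 30 listed genes 13 were tested, of which 11 fell and none rose, with a median of -1.52. Of these, Defa3 and Defa32 passed the filter mainly through the EtOH libraries, and with at least 10 counts asked of every library 9 of 11 fell. Reads that fit several copies may be split among them or lost, so values of single genes are uncertain. Defa24, the gene with most counts, was read at 789, 868 and 935 CPM in EtOH and at 243, 223 and 269 CPM in 4-OHT organoids (-1.82 ± 0.08, adjusted p = 2.38e-13). Defa20 fell from 4.31, 5.20 and 5.21 CPM to 1.19, 0.924 and 0.823 CPM (-2.32 ± 0.22, adjusted p = 1.29e-08), and Defa30 from 123 to 172 CPM to 26.0 to 34.8 CPM (-2.30 ± 0.15). The groups overlapped only for Defa5 (-0.33 ± 0.26) and Defa29 (0.39 ± 0.22), which were not called. In standard medium 13 of 15 tested alpha-defensins fell, with a median of -1.71.

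The promoters of these genes are shown because they share a short motif with one another. The letters CTTTGAT, recognized by the TCF/LEF factors of the Wnt pathway, were searched on both strands in the 250 bases before each RefSeq gene start (GRCm38.p6). This motif was present in all 6 of the tested alpha-defensins that had a promoter entry, and all 6 fell, whereas 3.72% of 27025 genes held it. It reads ATCAAAG on the strand printed here, where capitals mark it. Defa20 (chr8:21509008-21509257, plus strand) and Defa30 (chr8:21134400-21134649, plus strand) differ in that the former holds the motif 2 times.
Defa20: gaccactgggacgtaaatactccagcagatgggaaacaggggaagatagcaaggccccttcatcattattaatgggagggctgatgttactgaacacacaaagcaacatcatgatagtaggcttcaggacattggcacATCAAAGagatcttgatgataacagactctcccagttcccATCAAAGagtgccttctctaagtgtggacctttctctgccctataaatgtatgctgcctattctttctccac
Defa30: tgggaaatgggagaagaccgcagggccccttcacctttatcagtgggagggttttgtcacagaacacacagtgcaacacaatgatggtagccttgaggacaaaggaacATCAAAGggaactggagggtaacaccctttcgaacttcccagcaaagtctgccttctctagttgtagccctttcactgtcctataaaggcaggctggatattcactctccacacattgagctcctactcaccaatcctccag
The window around the upstream match was nearly the same in the other 4 promoters, which lie on the plus strand of chromosome 8 at 21378390 to 21378426, 21025418 to 21025454, 21162150 to 21162186 and 21528905 to 21528941.
Defa2: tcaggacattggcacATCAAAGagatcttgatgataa
Defa21: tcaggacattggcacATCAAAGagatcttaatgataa
Defa22: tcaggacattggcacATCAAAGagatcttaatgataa
Defa32: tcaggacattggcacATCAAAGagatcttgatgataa
Defa2 (-1.58 ± 0.31), Defa21 (-1.87 ± 0.15), Defa22 (-1.12 ± 0.12) and Defa32 (-1.22 ± 0.44) all fell in Wnt3-CM. A match describes the letters of the window and does not show that a factor binds there, and copies of one ancestral gene are not separate cases.

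Goblet cells secrete the mucus of the intestine. Of 25 listed genes 24 were tested, of which 13 fell and none rose, with a median of -0.63. Retnlb, too low to be tested, went the other way, with 0 counts in every EtOH library and 9, 22 and 14 counts in the 4-OHT libraries. Muc2, the main gel-forming mucin, was read at 328, 369 and 334 CPM in EtOH and at 236, 228 and 231 CPM in 4-OHT organoids. The groups did not overlap, but the change (-0.57 ± 0.07, adjusted p = 4.15e-07) stayed just under the fold criterion. Ccl6, a chemokine gene, fell most, from 25.7, 24.8 and 22.8 CPM to 5.91, 3.50 and 4.60 CPM (-2.39 ± 0.14, adjusted p = 2.34e-11). Fcgbp, which encodes a mucus protein that binds IgG, fell from 1148 to 1382 CPM to 622 to 788 CPM (-0.84 ± 0.09), and Spink4 from 341 to 462 CPM to 166 to 207 CPM (-1.20 ± 0.13). The guanylin gene Guca2a fell as well (-0.69 ± 0.07, adjusted p = 6.7e-08). In standard medium 11 goblet cell genes fell and none rose.

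Tuft cells are chemosensory cells that depend on the transcription factor Pou2f3. Pou2f3 was read at 3.52, 3.83 and 4.53 CPM in EtOH and at 0.298, 1.17 and 0.677 CPM in 4-OHT organoids (-2.46 ± 0.29, adjusted p = 1.03e-06). Trpm5, the cation channel of the taste cascade, fell from 8.94, 11.9 and 10.7 CPM to 1.09, 0.972 and 1.26 CPM (-3.24 ± 0.18, adjusted p = 5e-12). The transcription factor Spib (-3.58 ± 0.29), the actin-binding protein gene Avil (-3.40 ± 0.27) and Rgs13 (-3.95 ± 0.32), a regulator of G protein signaling, fell to under 0.6 CPM in all 4-OHT libraries. Dclk1 had 12, 14 and 18 counts in the EtOH and 0, 0 and 2 counts in the 4-OHT libraries, a ratio of 23.7 (95% counting interval 6.17 to 201). Gnat3, the gustducin subunit of taste signaling, had 55 counts over the EtOH and 1 over the 4-OHT libraries (ratio 59.1, interval 10.2 to 2380). These intervals cover counting error only.

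Of the 26 tuft cell genes, 20 were tested, 15 fell, 2 rose and 3 were not called. Most of them passed the filter through the EtOH libraries alone, where they are high, so that those had to differ and the count describes but supports nothing. With at least 10 counts asked of every library, 6 of the genes were left, of which 1 fell and 2 rose, with a median of 0.135. The 2 that rose were Hpgds (0.93 ± 0.13, adjusted p = 6.58e-06), a prostaglandin D synthase, and the interleukin-25 receptor gene Il17rb (0.98 ± 0.25, adjusted p = 0.00285). Il17rb rose from 1.31, 1.05 and 1.53 CPM to 2.14, 2.19 and 3.34 CPM. In standard medium 13 of 18 tested tuft cell genes fell, Il17rb among them, and 2 rose, Hpgds and Plcg2. The response of Pou2f3 there (-1.93 ± 0.33) differed from that in Wnt3-CM by -0.53 ± 0.48 (adjusted p = 0.438). Of 20 tuft cell genes the difference was called and negative in 4 and positive in 1, Il17rb. Spib (-2.04 ± 0.56, adjusted p = 0.01) and Trpm5 (-1.00 ± 0.36, adjusted p = 0.044) were among the 4. The call of Spib was lost without standard medium 4-OHT replicate 2 (adjusted p = 0.0575). That of Trpm5 was lost under several settings, DESeq2 among them (adjusted p = 0.053).

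Enteroendocrine hormones were close to the limit of these libraries. Of 30 enteroendocrine genes 5 were tested, and Gcg, Gip, Pyy, Sst, Tac1 and Tph1 had 0 counts in all 6 libraries. Neurog3, the factor that commits cells to this lineage, fell from 6.47, 9.97 and 8.16 CPM to 2.73, 3.65 and 2.61 CPM (-1.45 ± 0.18, adjusted p = 1.23e-06). Pax4 (-1.73 ± 0.30), a factor downstream of it, and the carboxypeptidase E gene Cpe (-1.34 ± 0.22) fell too, as did Insm1 (-2.37 ± 0.37), which had 5, 6 and 6 counts in the 4-OHT libraries. With at least 10 counts asked of every library, 3 of 4 fell. Sct, which encodes secretin, was the exception with 4.53 to 5.20 CPM in EtOH and 5.52 to 7.70 CPM in 4-OHT organoids (0.39 ± 0.16), under the fold criterion.

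**Figure D2:**
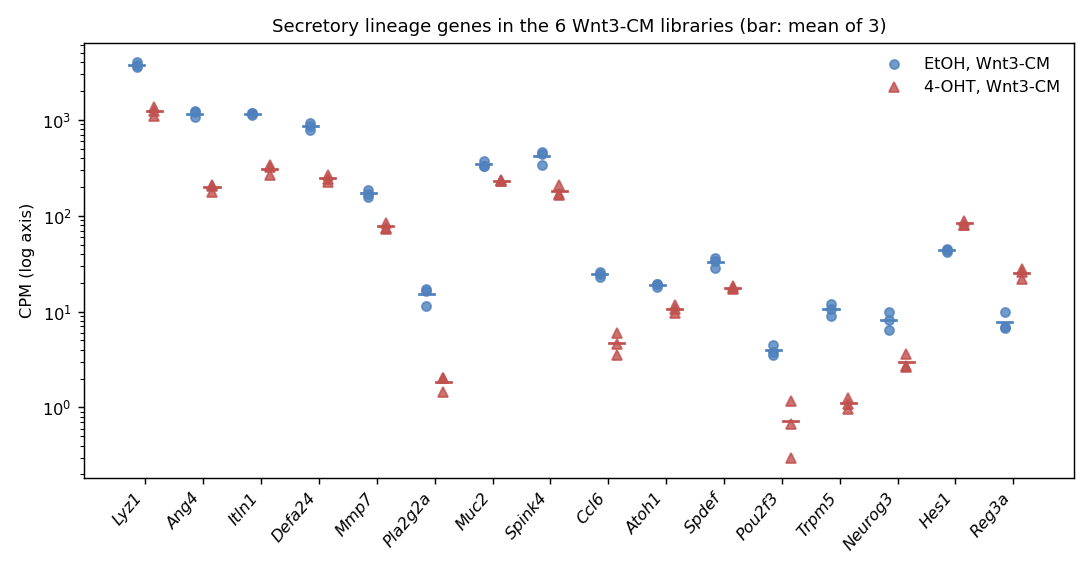
CPM on a log axis of secretory lineage genes in the 3 EtOH (blue circles) and the 3 4-OHT libraries (red triangles) in Wnt3-CM, with a bar for the mean of 3. Ang4 lies at 1061 to 1225 CPM in EtOH and at 179 to 211 CPM in 4-OHT organoids, whereas Hes1 and Reg3a lie higher after 4-OHT.

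Of 17 tested secretory lineage transcription factors 11 fell, none rose and 6 were not called, with a median of -0.82, and 12 fell in standard medium. With at least 10 counts asked of every library, 9 of 15 fell in Wnt3-CM. Atoh1 (chromosome 6, 64729125 to 64731245) was read at 19.2, 18.3 and 19.2 CPM in EtOH and at 9.69, 11.7 and 10.7 CPM in 4-OHT organoids (-0.82 ± 0.10, adjusted p = 1.01e-06). Spdef, which acts after Atoh1 in goblet and Paneth cells, fell from 28.6 to 36.1 CPM to 17.2 to 18.7 CPM (-0.88 ± 0.09). Sox9, needed for Paneth cells, fell from 57.4 to 61.4 CPM to 30.2 to 33.4 CPM (-0.90 ± 0.07), and Klf4, a factor of goblet cells and of enterocytes near the villus tip, from 121 to 138 CPM to 53.7 to 64.3 CPM (-1.18 ± 0.08). The stem and progenitor factor Sox4 fell by 0.74 ± 0.08 on the log2 scale. Foxa1 (-0.03 ± 0.07) and Xbp1 (0.05 ± 0.07), the factor of the secretory unfolded protein response, were not called.

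Of 19 tested genes of the Notch pathway 3 rose and 6 fell, and with at least 10 counts asked of every library 3 of 18 rose and 5 fell. Hes1 (chromosome 16, 30064384 to 30067796), the repressor of Atoh1, was read at 44.2, 42.0 and 44.6 CPM in EtOH and at 89.1, 80.8 and 79.1 CPM in 4-OHT organoids (0.93 ± 0.07, adjusted p = 6.46e-10). The Notch feedback gene Nrarp (0.85 ± 0.13) and Hes2 (1.15 ± 0.18), a relative of Hes1, rose likewise. Among the ligands, Jag1 fell from 21.1 to 23.1 CPM to 9.04 to 11.6 CPM (-1.16 ± 0.11), and Jag2 (-0.83 ± 0.07) and Dll4 (-1.15 ± 0.17) fell as well. The receptor gene Notch2 (-0.74 ± 0.11) and the coactivator genes Maml1 (-0.67 ± 0.08) and Maml2 (-2.25 ± 0.31) were the other members that fell, though without 4-OHT replicate 3 Maml1 stood just under the fold criterion, at -0.58. In standard medium Hes1 gave 0.54 ± 0.06, under that criterion, and its responses in both media differed by 0.38 ± 0.09 (adjusted p = 0.0025), again under it. Atoh1 gave -1.16 ± 0.08 there and a difference of 0.34 ± 0.13 (adjusted p = 0.0581).

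Of 21 tested stem cell genes 5 fell and none rose, with a median of -0.05, whereas 12 fell in standard medium, where the median was -0.70. The difference between the media was positive in 9 and negative in 1 of them. Olfm4 (chromosome 14, 79984081 to 80023139), a secreted protein of crypt base stem cells, was read at 734, 751 and 843 CPM in EtOH and at 752, 898 and 964 CPM in 4-OHT organoids in Wnt3-CM. The groups overlapped (0.17 ± 0.09, adjusted p = 0.115), while Olfm4 fell in standard medium (-0.97 ± 0.16), and the responses differed by 1.14 ± 0.12 (adjusted p = 1.13e-06). For Lgr5 (chromosome 10, 115450311 to 115587780), the receptor for R-spondin, the values were 74.6, 88.8 and 98.6 CPM in EtOH and 51.9, 71.7 and 60.9 CPM in 4-OHT organoids. They did not overlap, but the change (-0.51 ± 0.13, adjusted p = 0.0111) was under the fold criterion, against -1.38 ± 0.14 in standard medium (difference 0.87 ± 0.16, adjusted p = 0.000811). Myb, a factor of crypt progenitors, differed between the media by 1.10 in the same direction, and Hopx, a marker ascribed to reserve stem cells, gave -0.46 ± 0.08 in Wnt3-CM and -0.97 ± 0.08 in standard medium.

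The stem cell genes that did fall in Wnt3-CM were Ascl2, Msi1, Sox4, Bmi1 and Tnfrsf19. Ascl2, the factor that sets stem cell identity under Wnt, was read at 9.89, 11.9 and 14.4 CPM in EtOH and at 5.42, 7.53 and 7.36 CPM in 4-OHT organoids (-0.83 ± 0.15, adjusted p = 0.000151). Its response in standard medium was -1.40 ± 0.28 and the difference (0.57 ± 0.22, adjusted p = 0.0563) missed the criteria. Msi1 fell by 0.82 ± 0.12 on the log2 scale, with a difference of 0.22 ± 0.16 (adjusted p = 0.31). Bmi1, a Polycomb gene, fell by 1.02 ± 0.08 on the log2 scale, from 42.8 to 49.9 CPM to 21.1 to 25.0 CPM. Levels of the same gene in both media come from tables that cannot be told apart from the media, so only responses are compared here.

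**Figure D3:**
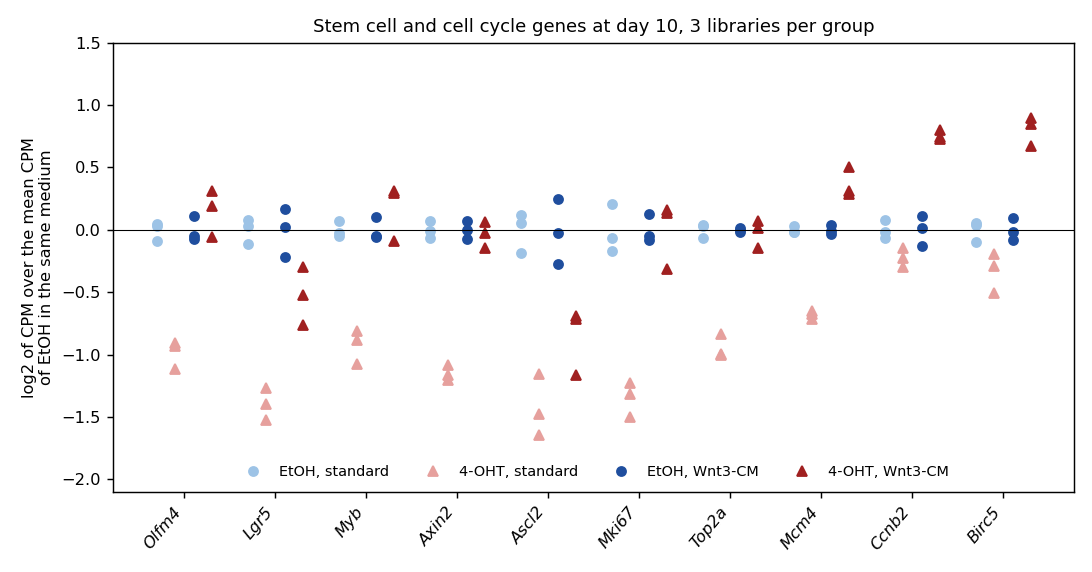
Stem cell and cell cycle genes at day 10, as log2 of CPM over the mean of the EtOH libraries of the same medium (y axis), for EtOH (circles) and 4-OHT libraries (triangles) in standard medium (light) and in Wnt3-CM (dark), 3 libraries per group. In Wnt3-CM the 4-OHT libraries lie around or above 0 for Olfm4, Mki67, Top2a and Ccnb2 and below 0 for Lgr5 and Ascl2, and in standard medium they lie below 0 for all 10 genes.

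Of 19 tested Wnt target genes 6 fell and none rose in Wnt3-CM (median -0.49), against 14 of 20 that fell in standard medium (median -0.83). Axin2, the feedback inhibitor that serves as a readout of canonical Wnt signaling, was read at 66.7, 60.5 and 63.8 CPM in EtOH and at 58.1, 63.2 and 66.8 CPM in 4-OHT organoids (-0.02 ± 0.07, adjusted p = 0.826), so the groups overlapped. Myc fell from 123 to 141 CPM to 72.5 to 79.4 CPM (-0.80 ± 0.07, adjusted p = 4.7e-09). The others that fell were Sox9, Ascl2 and Mmp7, given above, and Notum and Prox1, each at under 1.1 CPM, which passed the filter mainly through the EtOH libraries. With at least 10 counts asked of every library, 4 of 17 fell. Among 22 tested ligands, receptors and core components of the pathway 1 rose and 4 fell. Endogenous Wnt3 was read at 8.78, 11.3 and 9.11 CPM in EtOH and at 4.77, 5.40 and 4.74 CPM in 4-OHT organoids (-0.97 ± 0.14, adjusted p = 6.63e-06). In standard medium its response was -1.45 ± 0.13, and the difference of 0.48 ± 0.17 (adjusted p = 0.0449) was under the fold criterion. The receptor genes Fzd7 (-0.85 ± 0.08) and Fzd9 (-1.33 ± 0.22) and the kinase gene Csnk1a1 (-0.71 ± 0.07), whose product marks beta-catenin for degradation, fell as well. Wnt6 rose from 0.787 to 1.26 CPM to 1.65 to 2.03 CPM (0.88 ± 0.26, adjusted p = 0.00858), a call that was lost without EtOH replicate 2, where the value was 0.73 with an adjusted p of 0.0527.

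Of 32 tested cell cycle genes 6 rose and none fell in Wnt3-CM, with a median of 0.35, whereas none rose and 11 fell in standard medium, with a median of -0.50. The difference between the responses was called and positive in 30 of the 32. The cyclin gene Ccnb2 was read at 41.6, 37.9 and 45.0 CPM in EtOH and at 69.5, 70.4 and 72.6 CPM in 4-OHT organoids (0.77 ± 0.07, adjusted p = 2.45e-08). Birc5, which encodes the mitotic protein survivin, rose from 27.4 to 30.8 CPM to 46.7 to 54.2 CPM (0.82 ± 0.08), and Ccnb1 (0.71 ± 0.08), Bub1 (0.65 ± 0.11), Gins2 (0.94 ± 0.15) and Tk1 (0.59 ± 0.08) rose too. Tk1 lay at the fold criterion, with 0.57 without EtOH replicate 1 and 0.55 without EtOH replicate 2. Its call was also lost in a joint fit with the day 10 libraries of standard medium (0.5835). Mki67 was read at 172, 149 and 154 CPM in EtOH and at 129, 175 and 177 CPM in 4-OHT organoids (0.02 ± 0.11, adjusted p = 0.905), so that 4-OHT replicate 1 lay below and the others above the EtOH libraries.

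Over all genes, 13660 were tested in both media, of which 2267 were called in Wnt3-CM and 2234 in standard medium, which share no library. Of these, 974 were called in both, 919 with the same sign (560 higher and 359 lower) and 55 with opposite signs. The shared genes of equal sign made up 40.5% of the genes called in Wnt3-CM and 41.1% of those called in standard medium. Across genes, which are not independent replicates, the fold changes in both media had a Pearson r of 0.543. Being called in only 1 medium did not by itself mean a difference, since the interaction was called in 588 of 1293 genes called in Wnt3-CM alone and in 530 of 1260 called in standard medium alone.

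**Figure D4:**
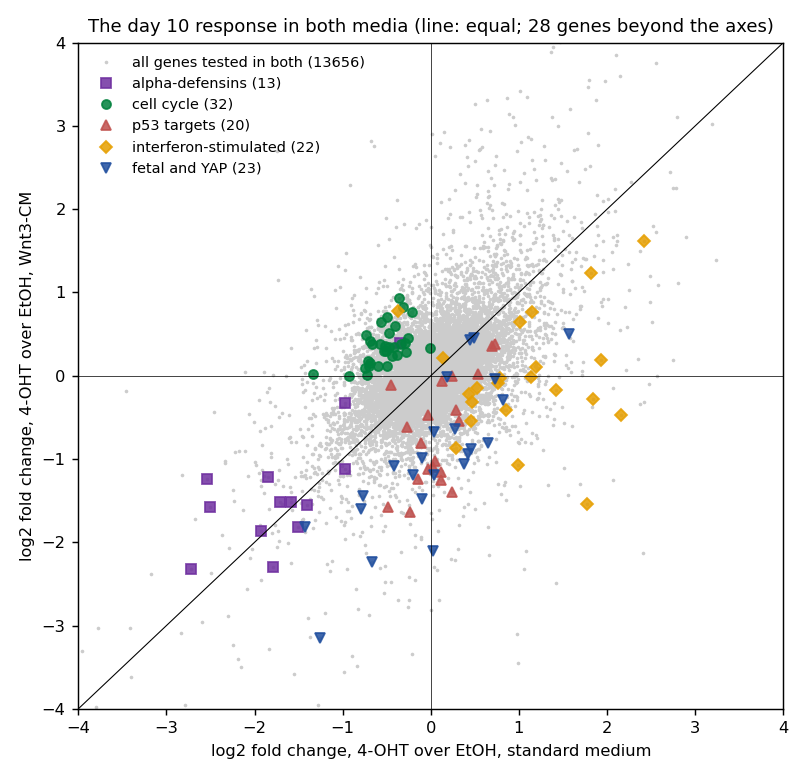
Log2 fold change of 4-OHT over EtOH at day 10 in standard medium (x axis) and in Wnt3-CM (y axis) for the 13656 gene symbols tested in both (grey) and for 5 gene lists in color, with a line where both responses are equal, and 28 genes beyond the axes. Alpha-defensins lie low on both axes, cell cycle genes lie above and p53 targets, fetal/YAP and interferon-stimulated genes mostly below the line.

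Of 20 tested targets of p53, 11 fell and none rose in Wnt3-CM, with a median of -0.71. In standard medium none of them fell, 2 rose and the median was 0.08, and the difference was called and negative in 12. Cdkn1a, the inhibitor p21 of the cell cycle, was read at 733, 706 and 704 CPM in EtOH and at 377, 315 and 294 CPM in 4-OHT organoids (-1.12 ± 0.08, adjusted p = 4.75e-10). The stress cytokine gene Gdf15 fell from 32.4 to 36.1 CPM to 10.3 to 13.6 CPM (-1.58 ± 0.10, adjusted p = 4.96e-11), and Trp53inp1 from 71.1 to 80.6 CPM to 27.9 to 29.2 CPM (-1.40 ± 0.07). Sesn2 (-1.24 ± 0.08), Plk2 (-1.26 ± 0.09), Phlda3 (-1.64 ± 0.12) and the death receptor gene Eda2r (-1.15 ± 0.12) fell, as did the BH3-only genes Bbc3 (-1.10 ± 0.10) and Pmaip1 (-0.80 ± 0.09). Mdm2, the p53 ubiquitin ligase and itself a target, was not among them (-0.06 ± 0.07, adjusted p = 0.477).

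ATF4 is the transcription factor of the integrated stress response and of amino acid shortage. Of 21 tested targets, Atf4 itself included, 17 fell and none rose (median -0.88), and in standard medium 12 fell and 2 rose (median -0.91). Aldh1l2, a mitochondrial folate enzyme, was read at 37.4, 38.9 and 36.1 CPM in EtOH and at 4.37, 4.33 and 5.08 CPM in 4-OHT organoids (-3.03 ± 0.10, adjusted p = 1.61e-15). Phgdh, the first enzyme of serine synthesis, fell from 115 to 133 CPM to 46.4 to 49.1 CPM (-1.38 ± 0.07), and the cystine transporter gene Slc7a11 from 99.9 to 119 CPM to 38.1 to 40.8 CPM (-1.47 ± 0.08). The pseudokinase gene Trib3 fell from 283 to 309 CPM to 73.1 to 94.7 CPM (-1.87 ± 0.08, adjusted p = 9.47e-13). Ddit3, the stress factor CHOP, fell by 2.30 ± 0.10 on the log2 scale, and Atf4 by 0.61 ± 0.07. The difference between the media was called and negative in 8 of the 21, among them Trib3, Ddit3, Atf4 and Nupr1, and in none was it positive. Asns and Nupr1 are shown because they hold the C/EBP-ATF response element through which ATF4 acts. Searched as TGATGNAA on both strands of the same 250 bases, it was found in 6 of 18 listed genes with a promoter entry, of which 5 fell, and 9 of the other 12 fell too. It was present in 3.91% of all 27025 genes, and capitals mark it in Asns (chr6:7693210-7693459, minus strand) and, read from the opposite strand, in Nupr1 (chr7:126625471-126625720, minus strand).
Asns: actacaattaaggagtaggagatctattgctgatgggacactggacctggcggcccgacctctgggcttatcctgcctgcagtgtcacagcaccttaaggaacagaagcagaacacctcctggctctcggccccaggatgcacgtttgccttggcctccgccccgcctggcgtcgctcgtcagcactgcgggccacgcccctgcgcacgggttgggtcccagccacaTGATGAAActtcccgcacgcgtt
Nupr1: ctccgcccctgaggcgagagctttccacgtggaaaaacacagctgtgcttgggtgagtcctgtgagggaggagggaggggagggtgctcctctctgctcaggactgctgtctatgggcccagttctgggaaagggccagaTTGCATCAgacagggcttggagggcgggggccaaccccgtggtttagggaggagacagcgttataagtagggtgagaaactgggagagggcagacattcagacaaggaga
Asns, asparagine synthetase, fell from 539, 569 and 566 CPM to 358, 307 and 323 CPM (-0.76 ± 0.07, adjusted p = 1.17e-08), and Nupr1 from 96.8, 97.7 and 95.1 CPM to 37.2, 22.8 and 30.8 CPM (-1.68 ± 0.15, adjusted p = 2.74e-05).

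Of 23 tested genes of the fetal and regenerating epithelium, many of them targets of the coactivator YAP, 17 fell and none rose (median -0.99), whereas 5 fell and 4 rose in standard medium (median 0.04), and the difference was called and negative in 16. Anxa2, an annexin, was read at 1750, 1882 and 1809 CPM in EtOH and at 995, 899 and 947 CPM in 4-OHT organoids (-0.94 ± 0.07, adjusted p = 5.28e-10), whereas it gave 0.43 ± 0.06 in standard medium. Clu, a marker of revival stem cells, fell from 126 to 135 CPM to 37.8 to 48.8 CPM (-1.60 ± 0.08), the keratin gene Krt7 from 949 to 1038 CPM to 402 to 474 CPM (-1.20 ± 0.07), and Ly6a, which encodes the fetal marker Sca-1, by 3.15 ± 0.28 on the log2 scale. Among the YAP targets of the list, Ajuba (-1.19 ± 0.11) and Amotl2 (-0.67 ± 0.10) fell, while Ctgf (0.45 ± 0.22) and Cyr61 (-0.01 ± 0.15) were not called.

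Of 23 tested ligands and feedback genes of the EGF receptor pathway 14 fell and none rose (median -0.81), against 4 that fell in standard medium. Areg, which encodes amphiregulin, was read at 308, 361 and 339 CPM in EtOH and at 77.1, 63.8 and 73.6 CPM in 4-OHT organoids (-2.23 ± 0.08, adjusted p = 9.37e-15). Btc, betacellulin, fell from 88.0 to 116 CPM to 20.9 to 21.5 CPM (-2.29 ± 0.09), as did Hbegf (-1.40 ± 0.10) and the receptor gene Egfr (-0.92 ± 0.09). The ERK phosphatase gene Dusp6 fell from 217 to 227 CPM to 75.8 to 91.2 CPM (-1.44 ± 0.07, adjusted p = 7.63e-13). Of 21 tested immediate early genes 15 fell and none rose (median -1.10), against 6 of 22 that fell in standard medium. Egr1, the most affected, was read at 103, 121 and 123 CPM in EtOH and at 13.6, 17.2 and 16.2 CPM in 4-OHT organoids (-2.88 ± 0.09, adjusted p = 4.4e-15). Fos fell from 103 to 115 CPM to 41.8 to 44.9 CPM (-1.32 ± 0.07), Junb by 1.15 ± 0.09 on the log2 scale and Klf6 by 1.12 ± 0.07. Several of them are also on the list of villus tip genes, of which 9 of 14 tested fell and 2 rose (median -1.07). The ecto-nucleotidase gene Nt5e of this list had 40 counts over the EtOH and 1 over the 4-OHT libraries (ratio 43.0, 95% counting interval 7.29 to 1740).

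Interferon-stimulated genes moved in both directions in Wnt3-CM. Of 24 tested, 4 rose and 5 fell (median -0.16), whereas 11 of 22 rose and none fell in standard medium, with a median of 1.00, and the difference was negative in 13 and positive in 1. Ifit3, an antiviral effector, was read at 22.5, 38.5 and 28.6 CPM in EtOH and at 6.61, 11.9 and 12.3 CPM in 4-OHT organoids (-1.54 ± 0.32, adjusted p = 0.0151). Isg15, the ubiquitin-like modifier, fell from 21.8, 26.0 and 24.1 CPM to 10.9, 11.3 and 11.9 CPM (-1.07 ± 0.10, adjusted p = 1e-08). Gbp2 (-1.56 ± 0.39, under 1 CPM) and Usp18 (-0.74 ± 0.17) fell as well, although without EtOH replicate 2 Usp18 gave -0.57, under the fold criterion. By contrast, Irf8 rose from 60.9 to 68.3 CPM to 103 to 114 CPM (0.77 ± 0.07, adjusted p = 8.41e-09), and Oas1a (0.77 ± 0.12), Ifi44 (1.61 ± 0.24) and Mx2 (1.23 ± 0.30) rose too. The promoters of Ifit3 (chr19:34583279-34583528, plus strand) and Isg15 (chr4:156200819-156201068, minus strand) are given for the interferon-stimulated response element, searched on both strands as GAAA, 2 bases of any kind and GAAA. Capitals mark 2 matches read from the opposite strand in the former and 3 overlapping ones in the latter.
Ifit3: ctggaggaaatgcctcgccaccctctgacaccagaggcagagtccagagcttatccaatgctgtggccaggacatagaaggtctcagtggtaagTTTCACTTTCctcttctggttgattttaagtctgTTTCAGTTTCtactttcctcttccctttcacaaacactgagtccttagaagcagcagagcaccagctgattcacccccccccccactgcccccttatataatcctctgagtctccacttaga
Isg15: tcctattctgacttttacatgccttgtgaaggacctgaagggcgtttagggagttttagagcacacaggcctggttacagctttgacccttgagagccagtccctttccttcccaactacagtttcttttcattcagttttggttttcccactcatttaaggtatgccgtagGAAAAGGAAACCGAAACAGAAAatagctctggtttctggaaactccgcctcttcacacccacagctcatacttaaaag
The element was present in 8 of 17 listed genes with a promoter entry and in 3.46% of all genes. Of these 8 genes 4 were called, Isg15, Ifit3 and Gbp2 lower and Oas1a higher, and of the other 9 genes 3 were called.

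Of 12 tested genes of antigen presentation by MHC class I, 5 were higher and none lower in Wnt3-CM, and 10 were higher in standard medium. The nonclassical H2-T3 was read at 12.5, 12.3 and 11.1 CPM in EtOH and at 47.1, 55.4 and 53.8 CPM in 4-OHT organoids (2.12 ± 0.09, adjusted p = 5.21e-14). B2m, the light chain of class I molecules, rose from 348 to 394 CPM to 637 to 643 CPM (0.78 ± 0.07), and H2-Q2 (1.01 ± 0.07), H2-Q1 (0.90 ± 0.14) and the immunoproteasome gene Psmb9 (0.85 ± 0.15) rose too. Of the class II genes 2 were tested, and H2-Eb1, at 1.63 to 2.58 CPM in EtOH and 1.40 to 1.49 CPM in 4-OHT organoids, was called lower (-0.62 ± 0.24, adjusted p = 0.0371). This call was lost with 5 of the 6 libraries left out in turn, without EtOH replicate 1 (adjusted p = 0.145) or 3 (0.128) or any 4-OHT replicate (0.0547, 0.0929 and 0.0884), and also with DESeq2 (0.103), limma-voom (0.0546) and upper quartile factors (0.0512). Of 16 chemokine and epithelial defense genes 2 rose and 5 fell. Pigr, the receptor that carries IgA across the epithelium, rose from 901, 920 and 910 CPM to 1686, 2108 and 2080 CPM (1.11 ± 0.08, adjusted p = 4.71e-10), and the chemokine gene Ccl25 by 0.83 ± 0.07. Cxcl10 fell from 3.37, 5.67 and 4.06 CPM to 0.199, 0.243 and 0.290 CPM (-4.12 ± 0.32, adjusted p = 6.28e-10), or 4, 5 and 6 counts. With at least 10 counts asked of every library, 2 of 14 genes of this list rose and 3 fell.

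**Figure D5:**
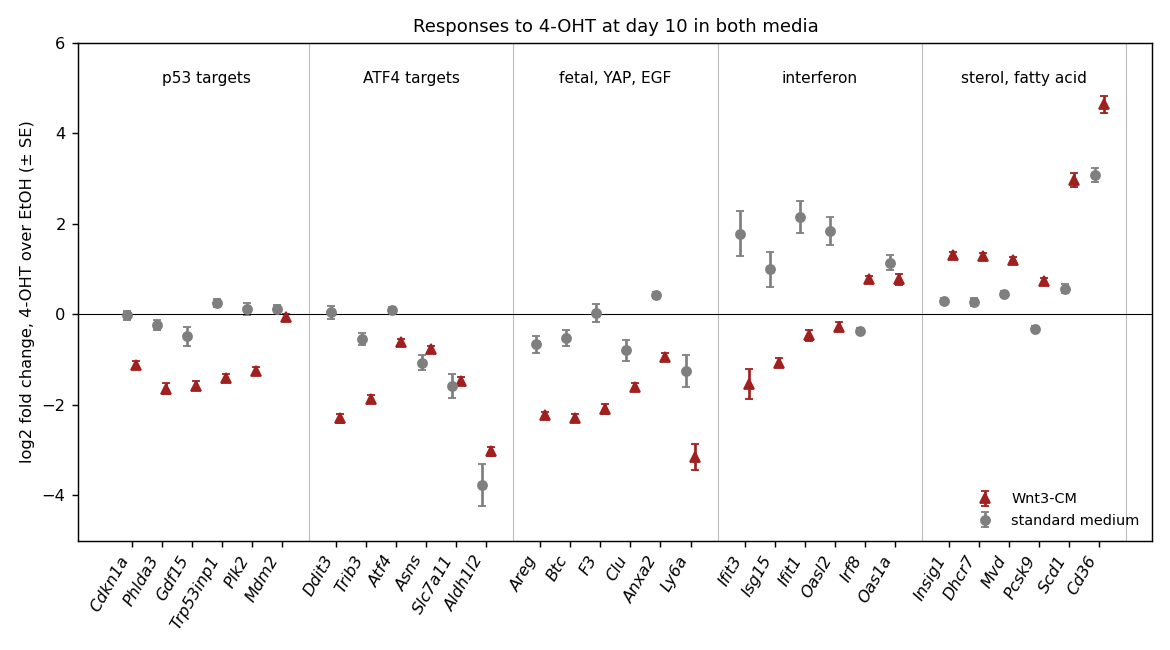
Log2 fold change of 4-OHT over EtOH (y axis, bars are standard errors) in Wnt3-CM (red triangles) and standard medium (grey circles) for members of 5 groups of lists. Cdkn1a, Ddit3, Areg and Ifit3 lie low in Wnt3-CM, at -1.12, -2.30, -2.23 and -1.54, whereas Insig1, Dhcr7 and Scd1 lie high.

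Of 30 tested enterocyte genes 12 rose, 2 fell and 16 were not called (median 0.34), and 14 rose and 2 fell in standard medium. The sum of the list was 15930 to 18460 CPM in EtOH and 15440 to 17240 CPM in 4-OHT organoids, and so did not separate the groups. Abundant members that were not called include the disaccharidase genes Sis (-0.34 ± 0.08) and Mgam (-0.58 ± 0.09), the glucose transporter gene Slc5a1 (-0.27 ± 0.09) and Vil1 (-0.25 ± 0.07), which encodes villin. Treh, the brush border trehalase, was read at 12.1, 11.0 and 12.4 CPM in EtOH and at 46.5, 54.2 and 49.3 CPM in 4-OHT organoids (2.08 ± 0.09, adjusted p = 6.02e-14). The peptidase gene Mep1a rose by 2.17 ± 0.09 on the log2 scale, the fatty acid binding protein gene Fabp2 from 50.0 to 64.2 CPM to 243 to 289 CPM (2.13 ± 0.10), and Ace by 1.41 ± 0.07 on the log2 scale. Slc2a2, the basolateral glucose transporter, fell from 77.6 to 86.4 CPM to 18.9 to 24.7 CPM (-1.87 ± 0.09, adjusted p = 7.64e-13), as did Ada (-1.22 ± 0.18). Of 23 lipid uptake genes 9 rose and 2 fell. Cd36 (chromosome 5, 17781690 to 17888801), a fatty acid translocase, was read at 0.684, 0.472 and 0.579 CPM in EtOH and at 14.3, 15.2 and 14.2 CPM in 4-OHT organoids (4.64 ± 0.18, adjusted p = 1.28e-14). Apoa4 (1.55 ± 0.07) and Sar1b (0.91 ± 0.06), needed for chylomicrons, rose, and the lipase gene Pnliprp2 fell from 743 to 932 CPM to 318 to 332 CPM (-1.40 ± 0.08). Of 28 factors of the enterocyte lineage 4 rose and 3 fell, with Ppara (1.21 ± 0.12) among the former and Pparg (-0.81 ± 0.07) among the latter.

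Ileal and bile acid genes were divided. Fgf15 (chromosome 7, 144896531 to 144900953), the ileal hormone that represses bile acid synthesis in the liver, was read at 80.5, 105 and 89.9 CPM in EtOH and at 5.02, 4.47 and 5.52 CPM in 4-OHT organoids (-4.19 ± 0.11, adjusted p = 1e-15). In standard medium it fell by less (-2.16 ± 0.32), with a difference of -2.03 ± 0.26 (adjusted p = 1.01e-05). The apical bile acid transporter gene Slc10a2 fell from 30.8 to 34.6 CPM to 13.5 to 18.1 CPM (-1.05 ± 0.10), while the basolateral partner Slc51b rose (0.83 ± 0.13). In all, 2 of 11 tested genes rose and 4 fell.

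Of 22 tested sterol synthesis genes 10 rose, none fell and 12 were not called (median 0.48), whereas 1 rose in standard medium. Insig1, a sensor of the pathway, was read at 278, 250 and 247 CPM in EtOH and at 647, 666 and 610 CPM in 4-OHT organoids (1.31 ± 0.07, adjusted p = 1.81e-12). The enzyme genes Dhcr7 (1.28 ± 0.08), Mvd (1.20 ± 0.08) and Nsdhl (1.02 ± 0.07) rose along, and the difference between the media was called and positive in 6 of the 22. The fatty acid desaturase gene Scd1 rose from 220, 152 and 160 CPM to 1291, 1563 and 1299 CPM (2.97 ± 0.16, adjusted p = 1.5e-06), and Scd2 from 2100, 1751 and 1882 CPM to 3724, 4013 and 3404 CPM (0.96 ± 0.08, adjusted p = 5.45e-09). Of 19 genes of fatty acid oxidation and ketone synthesis 7 rose and 1 fell. Ehhadh (1.08 ± 0.07), a peroxisomal enzyme, and the thioesterase gene Acot1 (1.94 ± 0.13) rose, and Acot2 fell (-1.19 ± 0.11).

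Genes for the metabolism of xenobiotics and retinoids held the largest share of rises of the lists examined, 23 of 30 tested with 1 that fell (median 1.04), against 16 of 32 that rose and 2 that fell in standard medium. Adh1, which oxidizes retinol and ethanol, was read at 36.2, 29.0 and 31.3 CPM in EtOH and at 131, 114 and 113 CPM in 4-OHT organoids (1.89 ± 0.09, adjusted p = 4.45e-13). The carboxylesterase gene Ces2e rose from 462, 466 and 480 CPM to 1260, 1191 and 1145 CPM (1.35 ± 0.07, adjusted p = 8.34e-13), Ugt2b36 by 2.14 ± 0.11 on the log2 scale and Cyp2c65 by 1.16 ± 0.07. Cyp26b1, which degrades retinoic acid, was the member that fell, from 7.98 to 9.90 CPM to 0.795 to 1.41 CPM (-3.09 ± 0.20, adjusted p = 3.47e-11). Of 18 NRF2 targets 9 rose and 1 fell (median 0.58). Gpx2, a selenoprotein peroxidase of the gut, rose from 701, 758 and 778 CPM to 1601, 1635 and 1538 CPM (1.09 ± 0.07, adjusted p = 4.24e-11), and Gsta1 (1.07 ± 0.07), Gsta2 (1.89 ± 0.14) and Nqo1 (1.06 ± 0.09) rose with it. The NRF2 target that fell was Slc7a11, which is an ATF4 target as well.

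Of 22 genes of hypoxia and glycolysis 2 rose (Aldoc, 0.84 ± 0.07, and Car9, 0.72 ± 0.07) and 5 fell, among them the glucose transporter gene Slc2a1 (-1.06 ± 0.07), Hk2 (-1.11 ± 0.08) and Vegfa (-0.71 ± 0.07). Of 25 genes of protein folding in the endoplasmic reticulum Ern1 (-0.66 ± 0.08) and Ern2 (-0.87 ± 0.10) fell, and Sdf2l1 (0.59 ± 0.07) was called higher. The call of Sdf2l1 was lost without EtOH or 4-OHT replicate 3 (0.58 and 0.57). It was also lost without the filter on low counts (0.58) and in a joint fit with the day 10 libraries of standard medium (0.57). In the BMP and TGF-beta list 6 of 16 fell, with Bmp8b (-2.12 ± 0.15) and Bmp2 (-1.96 ± 0.25) furthest down. Among 23 subunits of SWI/SNF complexes Phf10 (-1.01 ± 0.07) and Arid1a (-0.62 ± 0.07) fell, the latter under the fold criterion without EtOH replicate 1 (-0.57) or 4-OHT replicate 1 (-0.55). Of 15 clock genes Nr1d1 (-1.33 ± 0.08) and Nfil3 (-0.92 ± 0.09) fell. Over all genes tested 16.9% were called, 9.45% higher and 7.42% lower. Calls in the SWI/SNF, endoplasmic reticulum and clock lists, taken in both directions together, do not exceed the first share. The rises in the hypoxia and glycolysis list do not exceed the second. These calls describe single genes and are no result about the lists. Among the 8 epithelial identity genes Krt18 fell from 1388, 1516 and 1435 CPM to 711, 668 and 727 CPM (-1.04 ± 0.07, adjusted p = 8.32e-11). Cdh1 fell by 0.61 ± 0.07 on the log2 scale. It missed the fold criterion without EtOH replicate 2, without 4-OHT replicate 1 and with upper quartile factors (-0.58 in each).

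Among called genes with at least 50 mean counts in the higher group, Gm13058 fell furthest, from 58, 51 and 44 counts in the EtOH libraries to 0 in all 3 4-OHT libraries. That is at least 54.8-fold lower, with 3 counts over the 4-OHT group as the floor. Sh2d7 (-5.38 ± 0.43), Ly6g (-5.06 ± 0.42), Fam129a (-5.04 ± 0.26) and Ly6c1 (-4.77 ± 0.47) followed, all under 0.5 CPM in every 4-OHT library. Mptx1, a pentraxin gene of the intestine, was read at 136, 174 and 157 CPM in EtOH and at 4.97, 7.39 and 7.79 CPM in 4-OHT organoids (-4.53 ± 0.14, adjusted p = 3.09e-10). The nucleoside transporter gene Slc28a2 fell from 16.6, 34.7 and 26.4 CPM to 0.696, 1.46 and 1.60 CPM (-4.36 ± 0.45, adjusted p = 0.000985), as did Pik3r5 (-4.14 ± 0.24), 1700057G04Rik (-4.05 ± 0.26) and Col26a1 (-3.98 ± 0.39).

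On the other side, Chrna4, which encodes a nicotinic acetylcholine receptor subunit, had 2 counts over the EtOH and 373 over the 4-OHT libraries (95% counting interval of the ratio 47.7 to 1440). The inositol transporter gene Slc5a11 rose from 0.105 to 0.315 CPM to 5.59 to 6.39 CPM (4.76 ± 0.28), and the pancreatic protease gene Ctrb1 from 0.211 to 0.999 CPM to 6.87 to 14.1 CPM (4.23 ± 0.50, adjusted p = 0.000451). Ppef1 (5.49 ± 0.42), Cyp2c38 (4.54 ± 0.45), C730002L08Rik (4.51 ± 0.44), Olr1 (4.01 ± 0.37), Gm11992 (3.95 ± 0.34) and Pimreg (3.88 ± 0.38) rose from under 0.5 CPM in each EtOH library to between 2.03 and 6.91 CPM. Spp2 stood at 18.8 CPM in 4-OHT replicate 1 and at 4.47 and 3.73 CPM in the other 4-OHT libraries, against 0.316 CPM or less in EtOH (6.12 ± 1.55, adjusted p = 0.0324). Its call was lost without EtOH replicate 1 (adjusted p = 0.0917), 2 (0.112) or 3 (0.11), with limma-voom (0.0852) and without the filter on low counts (0.0696).

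Between the media, the response of Scd1 differed by 2.40 ± 0.16 (adjusted p = 8.01e-08), with 0.56 ± 0.09 in standard medium. The gene 2010109I03Rik was read at 67.0, 101 and 85.9 CPM in EtOH and at 7.60, 6.03 and 9.53 CPM in 4-OHT organoids in Wnt3-CM (-3.45 ± 0.22), but gave 0.99 ± 0.35 at 0.678 to 1.95 CPM in standard medium, and the responses differed by -4.44 ± 0.44 (adjusted p = 3.88e-06). Its call in standard medium was lost without EtOH replicate 1 (adjusted p = 0.0663) or 3 (0.0508) or without 4-OHT replicate 2 (0.14). Gm19619 (-3.11 ± 0.25 against 0.98 ± 0.65) and Pik3r5 (-4.14 ± 0.24 against 0.70 ± 0.33) were lower in Wnt3-CM and not called in standard medium. Adh4 had opposite calls, with 2.29 ± 0.36 in Wnt3-CM, where it rose from 0.369 to 0.421 CPM to 1.36 to 2.93 CPM, and -0.92 ± 0.28 in standard medium, a call that was lost without EtOH replicate 1 (adjusted p = 0.0702) or 4-OHT replicate 3 (0.0563) of that medium. Moxd1 fell in Wnt3-CM from 3.05, 3.31 and 2.69 CPM to 0.994, 0.632 and 0.726 CPM (-1.94 ± 0.25, adjusted p = 1.49e-06). In standard medium it had 5, 5 and 7 counts in the EtOH and 0 in the 4-OHT libraries, so that its fitted difference of 3.55 ± 1.20 (adjusted p = 0.0341) depends on how counts of 0 are treated. This call was lost with DESeq2 (adjusted p = 0.0776), without the filter on low counts (0.0651) and, in standard medium, without EtOH replicate 3 (0.0593) or 4-OHT replicate 1 (0.0787), 2 (0.0827) or 3 (0.083). The water channel gene Aqp3, too low to be tested in Wnt3-CM alone, had 0 counts in all 3 EtOH and 2, 5 and 9 counts in the 4-OHT libraries there.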

How the data were processed

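Poly-A RNA was sequenced as paired ends of 100 bases. The authors aligned reads to mm10 with STAR 2.5.2 and counted them per gene with featureCounts of Subread 1.6.3, per the submitters' processing notes. Strandedness and annotation release are not given in the sources used here. The deposited tables hold raw counts for 54752 genes, and 12 per-sample columns of the tables were not used. Genes were filtered with filterByExpr, scaled by TMM and tested with the quasi-likelihood F test of edgeR 4.0.16 (R 4.3.3), 4-OHT against EtOH. The Wnt3-CM response used its 6 libraries, the standard-medium response a fit of 24 libraries of days 3, 5, 7 and 10, and the difference of responses an interaction over the 12 day 10 libraries, so that it need not equal the difference of the separate values. Calls needed an adjusted p (Benjamini-Hochberg) under 0.05 and a fold over 1.5. Fitted folds used the default prior count of edgeR. A prior count of 2 was used only for log2 CPM, from which the correlations between libraries were taken. Other scalings and filters, limma-voom (limma 3.58.1), DESeq2 1.42.0, a replicate block and leaving out each library were tried. Scripts were tested on simulated data. The members, gene lists and motifs were chosen with earlier results of these data known. Named genes were the Mediator kinases, genes the study names, the 12 largest rises and falls with at least 50 mean counts and separate groups, up to 4 called members per list and direction with any member a sentence counts, the 5 largest gains and losses of CPM, and the 6 largest differences in each direction. Of 54752 gene IDs 54723 were found in GENCODE vM21 (GRCm38), which gave the coordinates, and promoters came from RefSeq (GRCm38.p6). Some genes that these rules select are not reported here. Intervals cover counting error only.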

Additional observations from a re-analysis of the deposited data

Results flagged for a closer look

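The response to 4-OHT differed between Wnt3-CM and standard medium by the interaction test in 32 of the genes named for their size of change or by the study, 19 with a positive and 13 with a negative difference. Values are log2 fold changes in Wnt3-CM minus those in standard medium. Among stem cell genes the differences were 1.14 for Olfm4, 0.87 for Lgr5 and 1.10 for Myb. In lipid and detoxification genes they were 1.09 for Scd2, 2.40 for Scd1, 1.57 for Cd36, 1.07 for Gpx2, 3.15 for Cyp2c38 and 3.21 for Adh4, and the IgA receptor gene Pigr gave 1.03. The other positive differences were 3.03 for Ppef1, 2.99 for Slc5a11, 3.31 for C730002L08Rik, 2.54 for Olr1, 2.56 for Gm11992 and 2.52 for Pimreg. Negative differences were -2.03 for Fgf15, -1.51 for Mptx1, -1.37 for Anxa2, -0.83 for Krt18, -3.54 for Slc28a2, -4.84 for Pik3r5, -2.98 for 1700057G04Rik, -4.44 for 2010109I03Rik, -4.09 for Gm19619, -5.13 for Ly6g, -3.84 for Fam129a and -3.45 for Ly6c1. The remaining values were 5.43 for Chrna4, 5.25 for Aqp3, 3.55 for Moxd1 and -7.88 for Gm13058. These and Ly6g, Ly6c1, Fam129a, Gm19619, Ppef1, Slc5a11, Cyp2c38, C730002L08Rik, Gm11992 and Pimreg have at least 1 group with 12 counts or fewer over its 3 libraries, so that their values depend on the prior count of the fit. The calls of Fam129a (-3.45, adjusted p = 0.0872) and Ly6c1 (-2.32, adjusted p = 0.326) were lost without standard medium 4-OHT replicate 2, and that of Gm13058 (-7.02, adjusted p = 0.057) without 4-OHT replicate 1 of that medium. Ly6c1 was lost without Wnt3-CM 4-OHT replicate 2 as well (-3.14, adjusted p = 0.0522). Of 131 other named genes from the lists, 59 had a called difference. That of Moxd1 was lost with DESeq2 (2.92, adjusted p = 0.0776), without the filter on low counts (adjusted p = 0.0651) and without EtOH replicate 3 (adjusted p = 0.0593) or any 4-OHT replicate of standard medium (adjusted p = 0.0787, 0.0827 and 0.083). Groups of 3 libraries were not tested for single outlying values.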

How the results depend on the processing

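In Wnt3-CM 2319 genes were called, against 1991 to 2649 under the other settings and 2164 to 2521 with 1 library left out. In standard medium the 2437 calls became 1954 to 2458 and 2261 to 2533, and the 1911 differences became 1737 to 2062 and 1747 to 2003. The share of higher calls in Wnt3-CM lay between 55.1% and 60.7%, against 56% as reported. Over all these settings and left-out libraries, the median log2 fold change lay at most 0.0362 from 0 in Wnt3-CM. In standard medium the largest such distance was 0.0212, and for the differences it was 0.0441. Cdk19, not called, changed its sign from -0.03 to 0.003125 with upper quartile factors and to 0.02606 without 4-OHT replicate 3, and ranged down to -0.07813 without 4-OHT replicate 2. The labels do not say that replicate numbers pair the libraries. Same-numbered libraries deviated together with r of 0.222, 0.0951 and 0.133 in Wnt3-CM, where each library correlated best with its own number, and of 0.232, 0.0947 and 0.0443 in standard medium. With a replicate block 2395 genes were called in Wnt3-CM and 2062 differences. In standard medium the block was fitted on the 6 day 10 libraries alone, with 2455 calls against 2346 without it on the same libraries. Several enteroendocrine hormones had 0 counts in all 6 Wnt3-CM libraries, and low depth and absence of these cells cannot be told apart there.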
